A study of Mus musculus with 13 samples.

Results

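Of the 5043 STAT5A regions that the authors called on the pooled library without IL3 and that lie on assembled chromosomes, 3354 overlapped no region of the pooled STAT5A library with IL3. These regions, the members, were called without IL3 alone and were chosen by that comparison of called lists, so their number and scores are a description and were not tested. The 6 pooled lists of the study hold 59114 regions in all. The cells were Ba/F3, a mouse pro-B cell line that needs interleukin 3 (IL3) to survive. STAT5A, the histone demethylase LSD1 and the histone deacetylase HDAC3 were each mapped by chromatin immunoprecipitation and sequencing (ChIP-seq), with 2 biological replicates of each protein in each condition. With IL3, cells were kept for 6 h in medium lacking the cytokine and then received 10 ng/mL IL3 for 30 min. Without IL3, cells had the same 6 h of deprivation and no IL3 after it, and both groups came from cultures maintained in 1 ng/mL IL3. Ba/F3 is an established line, so the replicates share 1 source of cells, and no expression was measured in the files, so the pro-B label could not be set against marker genes.

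STAT5A is a latent transcription factor. Cytokine receptors such as that of IL3 activate JAK kinases, which phosphorylate STAT5 so that it forms dimers, enters the nucleus and binds a palindromic DNA element, and without cytokine most STAT5 is unphosphorylated and cytoplasmic. LSD1 works in CoREST complexes and removes methyl groups from lysine 4 of histone H3, and HDAC3 works in NCoR and SMRT complexes and removes acetyl groups. A region called for STAT5A in cells deprived of IL3 is therefore set here against the regions of these partners in both conditions, against the 1689 regions of the same list that overlapped a region with IL3 (retained regions), and against the 13854 STAT5A regions called with IL3 alone.

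The promoter sequence under the highest-scoring regions called without IL3 alone is shown first, because 1 short word recurs in it. The 5 highest-scoring members with a stretch of at least 100 bases before a start are shown, so members of like or higher score at Rpusd4, Ptbp1, Zfand4 and Rbm25 are not. Each sequence is the stretch of the called region that lies within the bases before a gene start in the RefSeq promoter table (GRCm38.p6, the assembly of the files' mm10), read 5′ to 3′ on the strand of the gene. Capitals mark CCAAT, the core of the box bound by the factor NF-Y, GGGCGGG, a box bound by SP and KLF factors, the extended box CCAATCA, and TTCNNNGAA, the STAT palindrome, on either strand, so that ATTGG and CCCGCCC are the same boxes on the opposite strand.
Ndufaf8 (chr11:120098711-120098869, plus strand): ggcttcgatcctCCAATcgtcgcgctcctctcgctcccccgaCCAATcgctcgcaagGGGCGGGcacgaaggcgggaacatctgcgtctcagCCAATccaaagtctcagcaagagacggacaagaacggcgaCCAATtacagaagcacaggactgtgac
Gatad2a (chr8:69996385-69996496, minus strand): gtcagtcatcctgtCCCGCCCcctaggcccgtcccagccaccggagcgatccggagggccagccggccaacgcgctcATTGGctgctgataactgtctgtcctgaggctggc
Gata2 (chr6:88198501-88198659, plus strand): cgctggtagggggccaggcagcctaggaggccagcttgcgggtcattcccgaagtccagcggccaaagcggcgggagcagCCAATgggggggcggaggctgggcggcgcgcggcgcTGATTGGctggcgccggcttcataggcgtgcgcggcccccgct
G3bp1 (chr11:55469527-55469685, plus strand): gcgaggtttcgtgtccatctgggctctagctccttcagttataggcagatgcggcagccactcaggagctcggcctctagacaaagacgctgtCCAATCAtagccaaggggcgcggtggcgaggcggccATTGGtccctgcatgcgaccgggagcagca
Tnrc6b (chr15:80711078-80711236, plus strand): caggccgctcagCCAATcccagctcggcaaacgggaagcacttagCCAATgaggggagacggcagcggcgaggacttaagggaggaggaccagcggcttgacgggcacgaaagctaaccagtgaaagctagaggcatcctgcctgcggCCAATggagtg
The region at Ndufaf8, a gene for an assembly factor of respiratory complex I that starts head to head with Tepsin, held 4 CCAAT boxes, and the stretch at Tnrc6b, a gene for a scaffold of Argonaute silencing complexes, held 3. The stretches at Gata2, a gene for a transcription factor of blood progenitors, and at G3bp1, a gene for a stress granule protein, held 2 each, and that at Gatad2a, a gene for a subunit of the NuRD complex, held 1. No TTCNNNGAA lay in any of these 5 stretches, which says only that these letters are not in them.

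For comparison, the 2 highest-scoring regions called without IL3 alone whose promoter stretch held TTCNNNGAA, and the 2 highest-scoring ones among the regions called with IL3 alone, are printed in the same way.
Gm9929 (chr1:170867718-170867854, plus strand): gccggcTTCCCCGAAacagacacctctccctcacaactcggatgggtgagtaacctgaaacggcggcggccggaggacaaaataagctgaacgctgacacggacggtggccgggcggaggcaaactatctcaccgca
Copz1 (chr15:103272766-103272887, plus strand): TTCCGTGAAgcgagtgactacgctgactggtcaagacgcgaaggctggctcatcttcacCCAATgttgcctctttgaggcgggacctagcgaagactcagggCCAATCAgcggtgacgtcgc
Tfpt (chr7:3629945-3630119, minus strand): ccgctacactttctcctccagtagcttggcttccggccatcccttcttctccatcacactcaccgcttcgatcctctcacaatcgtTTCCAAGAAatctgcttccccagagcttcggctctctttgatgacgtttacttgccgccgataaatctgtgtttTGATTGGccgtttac
Ubash3b (chr9:41158063-41158233, minus strand): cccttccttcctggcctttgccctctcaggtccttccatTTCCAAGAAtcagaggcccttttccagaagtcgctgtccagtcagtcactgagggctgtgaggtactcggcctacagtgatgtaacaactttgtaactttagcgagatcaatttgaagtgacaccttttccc
The first pair, at Gm9929 and at Copz1, a gene for a subunit of the coatomer, was called without IL3 alone with scores of 25.1 and 20.9. The second pair, at Tfpt and Ubash3b, was called with IL3 alone with scores of 320.5 and 305.5, on another list's scale. The stretch at Copz1 also held 2 CCAAT boxes.

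Among the windows of the promoter table (250 bases before to 50 after a start), 1498 of 32817 overlapped a region called without IL3 alone. They belonged to 1377 genes. Of these windows, 4.21% held TTCNNNGAA (95% Wilson interval 3.30 to 5.34), against 7.74% of windows under retained regions, 18.0% of windows under regions called with IL3 alone and 8.29% of all windows. The STAT palindrome was thus less frequent under regions called without IL3 alone than over all promoters of the table. It was most frequent under regions called with IL3 alone. The classes were parted by whether STAT5A was called with IL3, so this order is not independent of that choice, and it was not tested. Members also differed by library support. Under those in replicate 2 without IL3, 3.26% of 1104 windows held the palindrome (2.36 to 4.48). Under those in no replicate list without IL3, 7.03% of 384 windows did (4.88 to 10.0), an interval that holds the share of all windows. The low share thus went with replicate 2. Intervals on shares of windows or regions cover counting error only, and windows are not replicates of a condition.

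CCAAT was more frequent under regions called without IL3 alone. Of the windows under regions called without IL3 alone, 20.6% held 2 or more copies (18.6 to 22.7), against 13.7% under retained regions, 12.1% under regions called with IL3 alone and 11.7% of all windows. This measure was chosen after the printed sequences had been read. The share followed the score: 62.2% of the 74 windows under the 100 highest-scoring regions called without IL3 alone held 2 or more copies, 50.8% of the 177 windows under the highest 300, and 15.0% of the 973 windows under those below the highest 1000. Under the 100 highest-scoring retained regions, 24.4% of 86 windows held 2 or more. At the promoter windows of pooled LSD1 regions the shares were 13.4% with IL3 and 12.6% without IL3, near that of all windows.

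By library, windows with 2 or more CCAAT were counted under the 500 highest-scoring regions. They were 3 of 26 (11.5%) and 7 of 95 (7.37%) for STAT5A with IL3 replicates 1 and 2. For STAT5A without IL3 replicate 2 they were 34.0% of 359 windows. The share of replicate 1 with IL3 rests on few windows, and its interval reaches 29.0%. The list of STAT5A without IL3 replicate 1 had fewer than 500 regions and 13.7% over its 73 windows. Over its whole list, replicate 2 without IL3 had 19.1% (17.4 to 20.8), within the interval of replicate 1 without IL3, 7.61 to 23.4. The whole lists with IL3 had 15.2% of 1292 windows in replicate 1 and 10.9% of 1967 in replicate 2. The share at the highest-scoring regions of replicate 2 without IL3 therefore has no like set in replicate 1 without IL3. As to position, 31.8% of the copies in windows under regions called without IL3 alone were 50 to 100 bases before the start. The share was 25.9% under retained regions, 28.4% under regions called with IL3 alone and 25.8% over all windows.

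**Figure D1:**
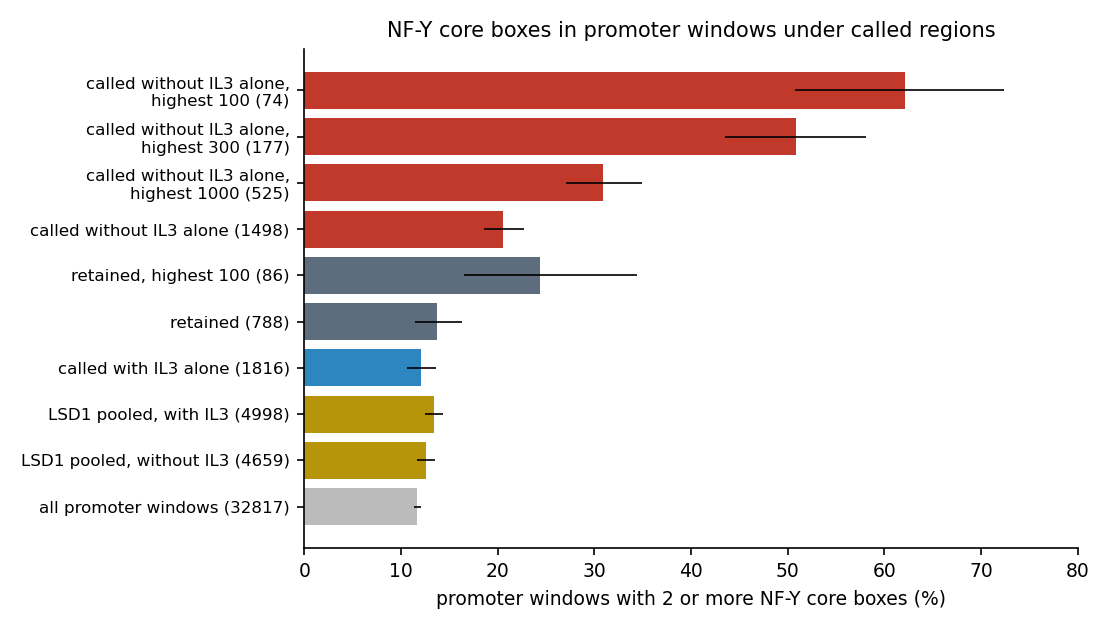
Share of RefSeq promoter windows (x axis, %) that hold 2 or more NF-Y core boxes (CCAAT on either strand), for windows under each set of regions (y axis, number of windows in brackets), with 95% Wilson intervals as lines. The 100 highest-scoring regions called without IL3 alone stand at 62.2%, all regions called without IL3 alone at 20.6%, and all windows at 11.7%.

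Base composition was measured in the same windows. Windows under regions called without IL3 alone had a GC content of 65.5% ± 7.72 (SD, 1498 windows), against 65.6% under retained regions, 61.4% under regions called with IL3 alone and 53.8% over all windows. CpG-rich windows, with at least 55% GC and an observed over expected CpG of at least 0.6, made up 82.6% under regions called without IL3 alone, against 82.7%, 65.0% and 30.3% in the same order of classes. Within CpG-rich windows the share with 2 or more CCAAT was 20.4% under regions called without IL3 alone, against 14% under retained regions, 11.5% under regions called with IL3 alone and 13.4% over all CpG-rich windows. So the CCAAT share under regions called without IL3 alone was higher also at like base composition. The STAT palindrome stood in 3.47%, 6.29%, 12.3% and 4.81% for the same 4 sets. Regions called without IL3 alone thus stayed below all CpG-rich windows, and retained regions stood above them there. This order, too, is not independent of how the classes were chosen. Among CpG-rich windows, those under members in replicate 2 without IL3 had 2.53%. Those under members in no replicate list without IL3 had 6.69% (19 of 284), above all CpG-rich windows.

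Some other boxes followed base composition more closely. GGGCGGG stood in 57.9% of windows under regions called without IL3 alone and in 25.6% of all windows, but in 63.3% and 59.9% of the CpG-rich ones. CCGGAAGT, a box of ETS factors, stood in 9.75% of windows under regions called without IL3 alone, against 13.7% under retained regions, 10.0% under regions called with IL3 alone and 3.89% of all windows. In CpG-rich windows it stood in 10.3% under regions called without IL3 alone and in 8.29% of all. AGATAAG, a box of GATA factors, stood in 1.40% under regions called without IL3 alone and in 3.05% of all windows, but in 0.969% and 0.987% of the CpG-rich ones. The extended box CCAATCA stayed apart, like CCAAT. It stood in 14.6% under regions called without IL3 alone and in 7.80% of all windows, and in 13.9% and 9.27% of the CpG-rich ones. All letters were searched on both strands, 12 boxes and CCAAT in all, and a match is no proof of a bound site.

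The regions themselves lay mostly at gene starts. Of the 3266 regions called without IL3 alone on chromosomes for which starts are listed here, 1793 (54.9%, 53.2 to 56.6) had their centre within 1 kb of a start, against 52.5% of retained regions and 21.8% of regions called with IL3 alone. Within 250 bp of a start lay 41.5% of regions called without IL3 alone, against 42.6% of retained regions and 12.2% of those called with IL3 alone. Starts on both strands within 1 kb, as at head-to-head gene pairs, were near 10.3% of regions called without IL3 alone, 9.74% of retained regions and 3.91% of regions called with IL3 alone. Among the regions within 1 kb of a start alone, the shares were 18.9%, 18.5% and 17.9%, which lay close together. Position therefore set both classes of the list without IL3 apart from the regions called with IL3 alone, and differed little between regions called without IL3 alone and retained ones. The profile over the bases around a start peaked just upstream of it in both.

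**Figure D2:**
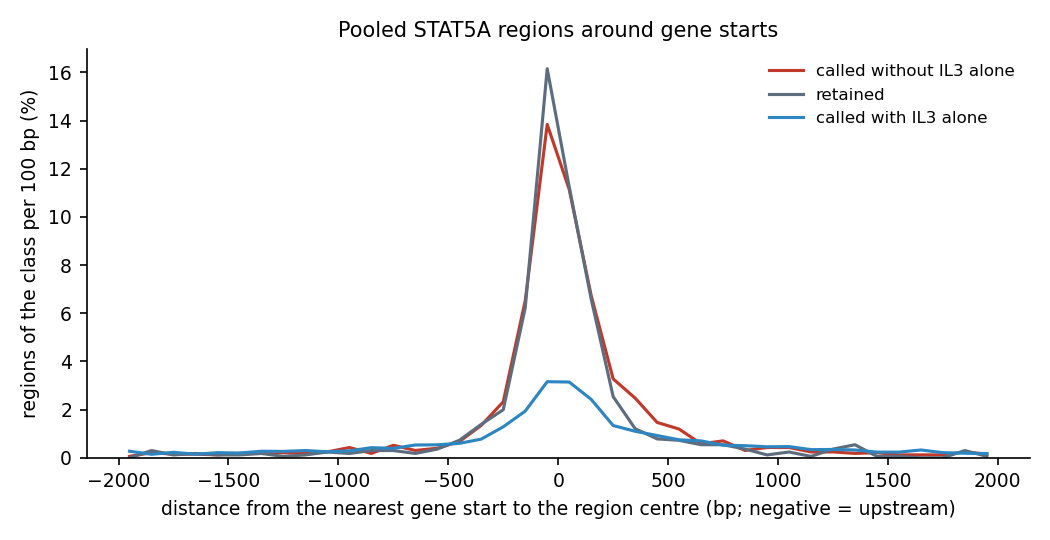
Share of each class of pooled STAT5A regions per 100 bp (y axis, %) by the signed distance of the region centre from the nearest gene start (x axis, bp), for regions called without IL3 alone, retained regions and regions called with IL3 alone. The first 2 classes share a sharp peak at the start, and the class called with IL3 alone has a lower one.

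Counted against either end of a protein-coding gene, 1872 regions called without IL3 alone (55.8%) lay within 1 kb. This share differed by library support. Of the 2118 regions also called in replicate 2 without IL3, 64.9% lay at a gene end. Of the 83 also called in replicate 1 without IL3, 30.1% did (21.3 to 40.7), and of the 1165 called in neither replicate without IL3, 41.1% did. The replicate lists as wholes had the same split, with 16% and 44.0% of regions at gene ends in replicates 1 and 2 with IL3, and 22.2% and 60.9% in replicates 1 and 2 without IL3. A high gene-end share thus went with replicate 2 in both conditions, and the part of the library in the share of the members was not tested.

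Support in the replicate libraries was uneven. In the pooled list without IL3 as a whole, 66.5% of regions overlapped no region with IL3, the share that the rule itself fixes. Regions called without IL3 alone were found in 46 cases (1.37%) in the list of STAT5A with IL3 replicate 1 and in 370 cases (11%) in that of replicate 2. Without IL3, 83 (2.47%) were in the list of replicate 1 and 2118 (63.1%) in that of replicate 2. The lists they were set against held 13572 and 6280 regions with IL3 and 352 and 4504 without IL3. Nearly all support for the regions called without IL3 alone therefore came from 1 library. Set directly against both replicate lists with IL3, 2929 regions of replicate 2 without IL3 overlapped neither, and 145 of replicate 1 did not.

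The overlap of the replicates was small. In both replicates without IL3 stood 12 of the 3354 regions, and 10 of these were in neither replicate with IL3. Replicate 2 without IL3 and no other replicate list held 1783 regions (53.2%), and 1080 (32.2%) were in no replicate list of either condition and were called on the pooled library alone. A replicate with IL3 held 415 (12.4%), so these regions were called with IL3 in a single library though not in the pool. Of those, 310 were in replicate 2 of both conditions. Retained regions had 43.3% and 62.5% in the replicates with IL3 and 9.06% and 69.6% in those without IL3.

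**Figure D3:**
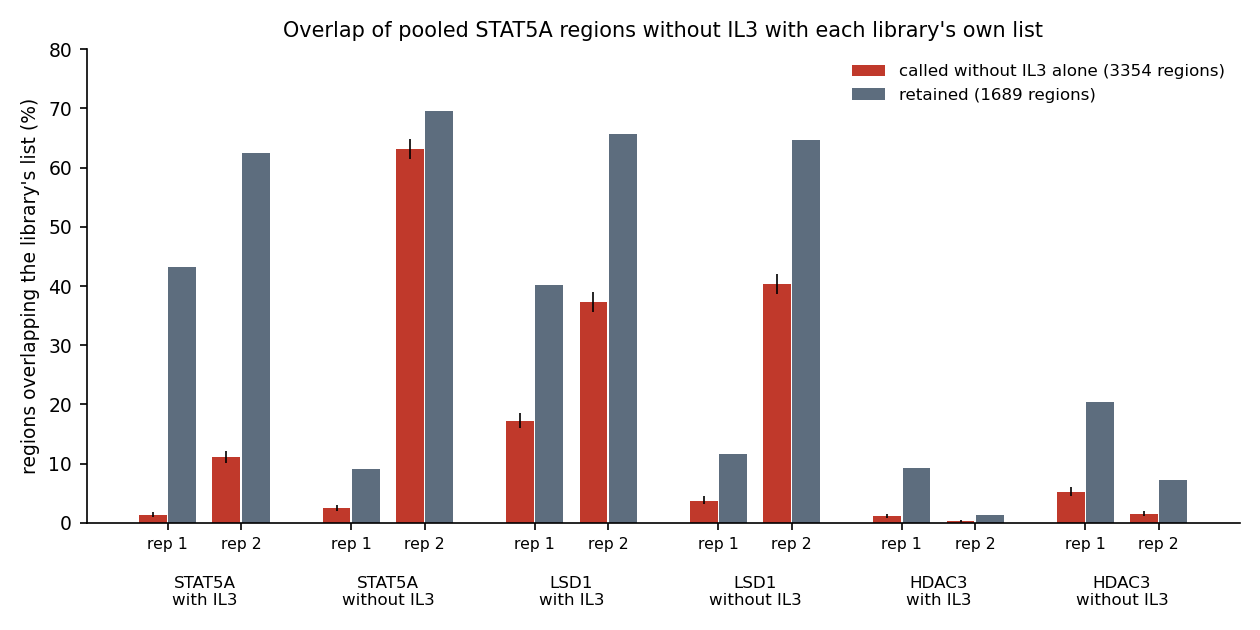
Share of regions called without IL3 alone and of retained regions (y axis, %) that overlap the list of each of the 12 libraries (x axis). Lines are 95% Wilson intervals on the share of regions called without IL3 alone. The tallest bar of that class is STAT5A without IL3 replicate 2 at 63.1%, and that of replicate 1 is 2.47%.

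The score that the authors deposited with each region has no definition in the sources used here, and it was used only to rank regions within the list. Regions called without IL3 alone had scores between 10.5 and 75.4 with a median of 16.8, and retained regions had scores between 12.6 and 215.8 with a median of 18.9. Scores lay on steps of 2.1, so the medians are 8 and 9 steps. Regions called without IL3 alone made up 79.2% of the list at 5 to 6 steps, 63.1% at 9 steps and 23.6% at 16 or more. They filled the lower part of the list more than its top, which held 50 of them among its regions of 16 or more steps. Their support in replicate 2 without IL3 climbed with the score, with 40.1% at 5 to 6 steps and 98.0% at 16 or more, and that in replicate 1 stood at 0.962% and 12%.

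**Figure D4:**
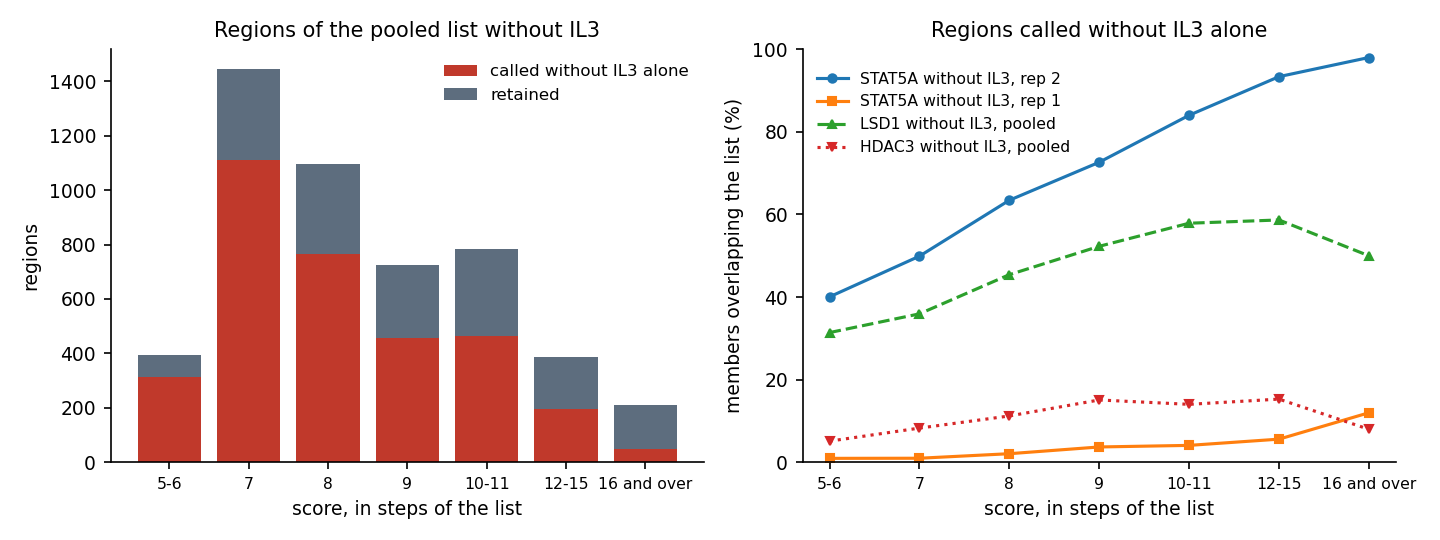
Left, number of regions called without IL3 alone and retained in the pooled list without IL3 (y axis) by score in whole steps of 2.1 (x axis). Right, share of the regions called without IL3 alone (y axis, %) that overlap the lists named in the legend, by the same score steps, where replicate 2 climbs to 98.0% and replicate 1 to 12%.

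Some members lay close to a region with IL3. Within 500 bp of one lay 761 (22.7%), and the median gap to the nearest was 7315.5 bp. Just outside the overlap rule, 85 members had a gap of at most 20 bp, with a median score of 16.8. Just inside it, 90 retained regions overlapped by at most 20 bp, also with a median score of 16.8. The rule thus parts regions that do not differ in median score at its border.

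LSD1 was called at many of these regions. In the pooled lists, 1514 (45.1%) of the regions called without IL3 alone met an LSD1 region in cells with IL3, against 71.6% of retained regions and 54% of the whole STAT5A list without IL3. In cells without IL3, 1492 (44.5%) overlapped an LSD1 region, against 68.6% of retained regions and 52.5% of the whole list. By library the shares of regions called without IL3 alone were 17.2% and 37.3% with IL3 and 3.76% and 40.4% without IL3. They spread widely within each condition, and the groups overlapped. The lists behind them held 6476 and 11567 LSD1 regions with IL3 and 1005 and 15783 without IL3, so the library with the fewest regions had the lowest share.

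The mean share was 27.3% ± 14.2 with IL3 and 22.1% ± 25.9 without IL3 (SD, n = 2 each). The difference of 5.19 percentage points was smaller than the spread between replicates (two-sided exact permutation test, p = 1, smallest possible 0.333). Its sign turned to -0.969 with equal numbers of top regions taken from each list, to -4.83 without LSD1 with IL3 replicate 2 and to -13.1 without LSD1 without IL3 replicate 1. LSD1 at these regions was thus not shown to differ with IL3. Set against the length of each LSD1 list, 8.93 and 10.8 regions called without IL3 alone were hit per 100 LSD1 regions with IL3 and 12.5 and 8.58 per 100 without IL3. In both LSD1 replicates stood 367 members (10.9%) with IL3 and 107 (3.19%) without IL3. Retained regions had a like fall, 33.4% with IL3 and 10.8% without IL3, and the list of LSD1 without IL3 replicate 1 held 1005 regions.

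Against retained regions the LSD1 share was lower in every library. In the 4 LSD1 libraries it averaged 24.7% ± 17.3 at regions called without IL3 alone and 45.5% ± 25.4 at retained regions (SD, n = 4 each). The difference was -20.9 points, lower in 4 of 4 libraries (-10.7 with equal numbers of top regions), with p = 0.125 in a two-sided exact sign-flip permutation test, the smallest that 4 libraries allow, and 0.25 after Benjamini-Hochberg adjustment over 4 tests. The design cannot pass 0.05. The gap was -30.8 points with regions at gene ends left out and -18.2 points within parts of the list of like score. It was narrower at gene ends. There the LSD1 shares of members were 19.2% and 43.1% in replicates 1 and 2 with IL3 and 2.99% and 41.1% without IL3. Those of retained regions were 33.1%, 60.3%, 6.28% and 55.6% in the same order.

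HDAC3 was found at fewer of them. In the pooled lists 89 regions called without IL3 alone (2.65%) overlapped an HDAC3 region with IL3, against 13.9% of retained regions and 6.42% of the whole STAT5A list without IL3. In cells without IL3, 362 (10.8%) did, against 29.7% of retained regions and 17.1% of the whole list. By library the shares were 1.13% and 0.239% with IL3 and 5.19% and 1.49% without IL3, and the groups did not overlap. The HDAC3 lists held 683 and 234 regions with IL3 and 1632 and 533 without IL3.

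The HDAC3 mean was 0.686% ± 0.632 with IL3 and 3.34% ± 2.61 without IL3 (SD, n = 2 each). The difference of -2.65 points reached the smallest p that 2 against 2 allows, 0.333, in a two-sided exact permutation test (0.444 after adjustment), and was -0.373 with equal numbers of top regions and -0.805 without HDAC3 without IL3 replicate 1. Set against the length of each list, 5.56 and 3.42 members were hit per 100 HDAC3 regions with IL3 and 10.7 and 9.38 per 100 without IL3. HDAC3 lists without IL3 thus held more of these regions for their length in both replicates, and this ratio was not tested. In both HDAC3 replicates stood 0 members with IL3 and 14 (0.417%) without IL3, against 10 (0.592%) and 87 (5.15%) of the retained regions. Against retained regions the HDAC3 share was 2.01% ± 2.18 at regions called without IL3 alone and 9.55% ± 8.01 at retained ones (SD, n = 4 each), a difference of -7.53 points that was negative in 4 of 4 libraries and was -3.45 with equal numbers of top regions (two-sided exact sign-flip permutation test, p = 0.125, the smallest possible, 0.25 after adjustment).

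Partner lists combined in a few ways. No pooled LSD1 or HDAC3 list of either condition overlapped 1289 regions called without IL3 alone (38.4%), against 16.3% of retained regions. LSD1 in both conditions with no HDAC3 was found at 740, LSD1 with IL3 as the sole partner list at 479, and LSD1 without IL3 as the sole one at 437. All 4 lists overlapped 34 (1.01%), against 172 retained regions (10.2%). HDAC3 in either condition stood at 409, and 363 of these had LSD1 as well. Gene-end position differed between the sets: 62.7% of members with LSD1 in either condition lay within 1 kb of a gene end, 40.3% of those with HDAC3, and 44.8% of those with no partner list.

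The promoter letters differed as well. Windows under members with no LSD1 or HDAC3 held 2 or more CCAAT in 28.7% of 400 cases (24.5 to 33.4), and windows under members with LSD1 in either condition did in 17.4% of 1089 (15.2 to 19.7). Members in replicate 2 without IL3 had 22.5%, and those in no replicate list without IL3 had 14.3%. More CCAAT boxes thus went with the absence of a partner list and with support in replicate 2. These splits were not crossed with each other or made at like score, so it was not tested whether they are separate.

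Among the 20 highest-scoring members, 17 lay within 1 kb of a gene end, 1 and 3 were in replicates 1 and 2 with IL3, and 2 and 19 in replicates 1 and 2 without IL3. Within 500 bp of a pooled region with IL3 lay 8 of them. Pooled LSD1 overlapped 6 of them with IL3 and 7 without IL3, and HDAC3 overlapped 0 with IL3 and 1 without IL3. Of the 16 nearest genes with a promoter window under a member, 14 had a window with 2 or more CCAAT, against 294 of the 1377 genes of all members. This count includes the printed stretches.

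The top score, 75.4, belonged to a region at chr9:35305230-35305388, 29352 bp from the nearest gene end, that of Rpusd4, a gene for a mitochondrial pseudouridine synthase. It was in replicate 1 of both conditions, with scores of 85.8 with IL3 and 213.3 without IL3, the highest of the replicate 1 list without IL3. HDAC3 with IL3 replicate 2 also had a region there, with a score of 3160.8, while no pooled LSD1 or HDAC3 list did. This top region was thus unlike the other 19, each of which was in replicate 2 without IL3.

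Some of the members next in score lay beside regions with IL3. Ptbp1, which encodes a splicing regulator, had a member 90 bp after its start with a score of 56.6 that was 2 bp from a pooled region with IL3. Rbm25, which encodes a splicing factor, had one with 52.4 that was 85 bp from its gene end, was also called in STAT5A with IL3 replicate 2, and was 17 bp from a pooled region with IL3 whose score was 185.9 on the scale of that list. Cnot3, a gene for a subunit of the CCR4-NOT deadenylase, had one 86 bp before its start with 39.8, under a window with 4 CCAAT. None of these 3 overlapped a pooled LSD1 or HDAC3 list.

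Gata2 had a member 84 bp before a start with a score of 50.3, in replicate 2 of both conditions and in pooled LSD1 of both conditions. Numb, a gene for an inhibitor of Notch signalling, had a member 20 bp after its start with a score of 44.0, in LSD1 with IL3. Others of the 20 were at Dolpp1, which acts on dolichyl pyrophosphate (44.0, no partner), Gltp, a glycolipid transfer protein gene (44.0, LSD1 with IL3 and HDAC3 without IL3), and Add1, which encodes a cytoskeletal adducin (39.8, LSD1 in both conditions). Windows at Dolpp1 and Numb held 4 CCAAT, at Gltp 3 and at Add1 2.

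The 10 members that each replicate without IL3 held, and no replicate with IL3, had scores between 20.9 and 37.7. Their nearest gene ends were those of Nfic, Lrig1, Sipa1l1, Nup54, Xylb, Atf6, Shox2, Aopep, Tmem223 and Irf2bpl. Only Nup54, a nucleoporin gene, Xylb, a xylulokinase gene, Atf6, a gene for a sensor of unfolded proteins, and Tmem223 had the region within 1 kb of an end. LSD1 in at least 1 condition overlapped all of these 10 but the one near Nfic, beside 60.2% of all members. Nfic encodes a nuclear factor I protein, and its region lay 1172 bp from the gene end with a score of 37.7. Among the genes nearest these 10 regions, 3 had a promoter window under a member, and 0 of the 3 held a CCAAT. Over the genes of all members, 585 of 1377 held at least 1.

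Members with all 4 partner lists lay farther from genes. The one near Lrig1, which encodes a membrane inhibitor of growth factor receptors, (chr6:94760885-94761043) was 60666 bp from a gene end with a score of 37.7, in both replicates without IL3, and 858836 bp from the nearest region with IL3. Tfeb, a gene for a transcription factor of lysosome and autophagy genes, had one 5598 bp after a start with 25.1. Others of the 10 highest-scoring such members were near Pdzd8, Zfat, Txnrd2, Adnp, Slc38a10, Atl2 and Maml3, with scores between 20.9 and 31.4.

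Over all 21887 protein-coding genes, 2096 (9.58%) had a member within 1 kb of an end, 1039 (4.75%) a retained region and 3223 (14.7%) a region called with IL3 alone. These shares are the background for each list. Of 25 STAT5 target genes 2 had a member (8%), near the background, and 11 (44.0%) had a region called with IL3 alone. Those with a member were Pim1, a survival kinase gene, with a member 53 bp after its start (20.9, in replicate 2 of both conditions, LSD1 with IL3), and Ccnd3, the cyclin D3 gene, with one 97 bp before its start (18.9, no partner). Of 20 genes for IL3 receptor and JAK-STAT components 5 had a member. Il3ra, for the alpha chain of the IL3 receptor, had one 289 bp after its start (20.9), Tyk2, a JAK family kinase gene, one at 110 bp (16.8), and Sos1, for a Ras exchange factor, one 55 bp before its start (16.8), each with LSD1 in both conditions. The adaptor genes Shc1 (16.8) and Gab2 (14.7) were the other two. Regions called with IL3 alone were at 7 of these 20 genes and retained regions at 1.

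Genes for the partner complexes had members at 6 of 20. Kdm1a, which encodes LSD1 itself, had one 25 bp after its start with a score of 18.9, and Gfi1b, for a repressor that recruits LSD1, one 31 bp before its start with 18.9. Rcor2, for a CoREST protein, had one 766 bp after a start with 27.2. All 3 overlapped LSD1 in both conditions. Rcor1 (16.8), for a CoREST protein, and Hdac1 (12.6), for a histone deacetylase, also had one. Regions called with IL3 alone were likewise at 6 of the 20 genes, and retained regions at 2.

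Autophagy genes had the highest share of the 24 lists, 9 of 25 (36.0%). The member at Ulk2, for an autophagy initiating kinase, lay 63 bp before its start with 27.2, and that at Gabarap, for a protein of the autophagosome membrane, 270 bp before with 20.9. Map1lc3b, for a protein of the same family, had one 106 bp before its start with 16.8. None of the 5 autophagy genes with a promoter window under a member had a CCAAT in it. Retained regions were at 1 of the 25 genes (4%), near their background of 4.75%, and regions called with IL3 alone at 9 (36.0%).

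Cell cycle and DNA replication genes had members at 10 of 35 (28.6%). Ccnb2, a B-type cyclin gene, had one 7 bp after its start with a score of 33.5, in replicate 2 of both conditions, and Mcm5, for a subunit of the replicative helicase, one 45 bp before its start with 25.1. The windows of both genes held 3 CCAAT, and that of Ccnb1, the other B-type cyclin gene of the list (16.8), held 2. Retained regions were at 0 of the 35, beside their background of 4.75%, and regions called with IL3 alone at 9 (25.7%).

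Stress genes with a member were 4 of 20. Hspa5, for the endoplasmic reticulum chaperone BiP, had one 119 bp before its start with 29.3, and Sel1l, for a subunit of the endoplasmic reticulum degradation machinery, one 30 bp before with 31.4. Both were in replicate 2 without IL3, had no partner list and lay under windows with 4 CCAAT. Atf6 (25.1) and Atf4, for a factor of the integrated stress response (14.7), were the other two. Retained regions were at 5 of these 20 genes (25%) and regions called with IL3 alone at 7 (35%). Their backgrounds are 4.75% and 14.7%, so a raised share at stress genes was not particular to members. Of 20 FOXO genes and targets 3 had a member, with Txnip, for a thioredoxin-binding protein, the highest at 33.5, and Ccng2 (18.9) and Cdkn1b (14.7) below it. The p53 pathway had 4 of 16, Trp53inp1 (27.2), Mdm2, for the ubiquitin ligase of p53 (16.8), Rrm2b (16.8) and Bax (14.7). Of the 18 BCL2 family genes 2 had one, Bad (16.8) and Bax, both of which promote cell death. Regions called with IL3 alone were at 3 of the FOXO list, 5 of the p53 list and 3 of the BCL2 family. Retained regions were at 1 gene of each of these lists.

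Lists of housekeeping genes varied. Spliceosome and SR protein genes had a member at 17 of 65 (26.2%), with Snrpe at 20.9, and translation initiation factor genes at 14 of 56 (25%), with Eif5 at 31.4 and Eif1ad at 27.2. Mediator had 7 of 33, nucleoporins 5 of 26, RNA polymerase II and general factors 9 of 50, with Taf10 at 27.2, and aminoacyl-tRNA synthetases 5 of 35. Ribosomal protein genes were near the background, with 10 of 83 cytosolic (12%) and 9 of 78 mitochondrial ones (11.5%), while regions called with IL3 alone were at 32 and 28 of them. Complex I genes had 4 of 38, proteasome genes 3 of 39, with Psmd12 at 31.4, and histone genes 4 of 66. Regions called with IL3 alone were at more genes than members in each of these housekeeping lists. They were at 21 spliceosome and SR protein, 22 initiation factor, 14 nucleoporin and 9 Mediator genes. Retained regions were at 4, 5, 1 and 2 genes of these lists in the same order. They were also at 9 cytosolic and 12 mitochondrial ribosomal protein, 6 synthetase, 5 proteasome and 4 complex I genes. In these lists they were at as many genes as members or more, except for cytosolic ribosomal protein genes. At RNA polymerase II and general factor genes they were at 5, and at histone genes at 2. Their background is 4.75%.

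Lineage lists had few genes with a member. Myeloid and mast cell genes had one at 3 of 20, Gata2 (another region than the printed one, 18.9), Lyl1 (18.9) and Mpo (16.8). Immediate early genes had one at 1 of 20, Ier3 (16.8), and B lineage genes at 0 of 20. Genes of unrelated tissues had 1 of 30, Sftpc (18.9). Retained regions were at 1 myeloid and mast cell, 2 immediate early and 0 B lineage genes. Regions called with IL3 alone were at 5, 4 and 1 of them, and both classes were at 1 of the 30 genes of unrelated tissues. The shares describe the lists beside 9.58% over all genes, and the lists were not tested. The lineage counts are too small to tell these lists from that background or from each other.

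**Figure D5:**
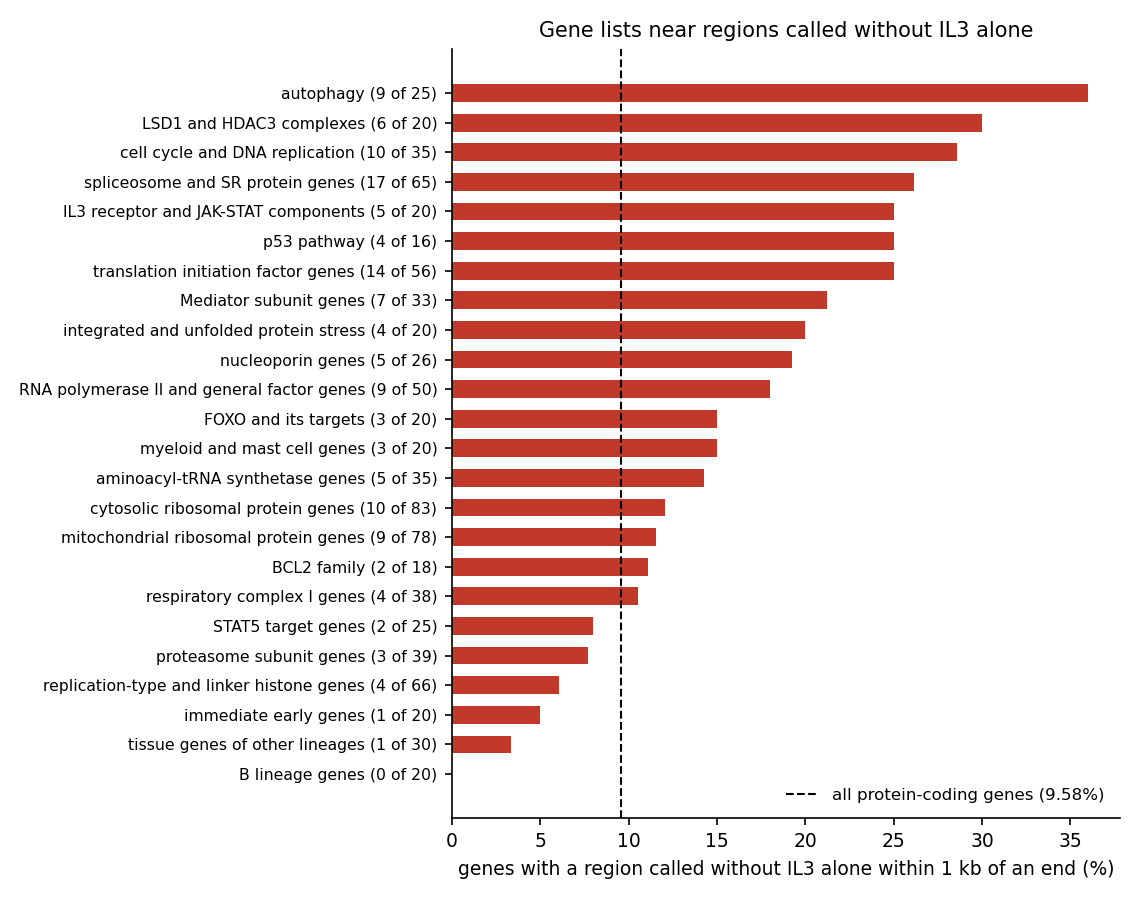
Share of the genes of each list (x axis, %) with a region called without IL3 alone within 1 kb of a gene end, with the number of genes in brackets (y axis). The dashed line is the share over all protein-coding genes, 9.58%, and the lists run from autophagy at 36.0% to B lineage at 0 of 20.

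Chromosomes differed in how many genes had a member. Chromosome 19 had the highest share, 19.4% of its 705 genes, chromosome 15 had 14.6% and the X chromosome 1.55%. Retained regions were at 12.3% of the genes of chromosome 19 and 0.725% of those of X, and regions called with IL3 alone at 21.4% and 3.93%. The high place of chromosome 19 and the low place of X were thus shared by the other classes. Pdcd4, a translation inhibitor gene on chromosome 19, had the most members within 10 kb of an end, 5, followed by Ehd1 and Pitx3 on the same chromosome with 4 each. Acss1 and Aldh3b1 had 3, as did other genes.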

How the data were processed

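STAT5A, LSD1 and HDAC3 ChIP-seq of Ba/F3 cells was used as lists of called regions, 1 per library (12) and 1 per pooled group (6). Per the submitters' processing notes, Trimmomatic 0.30, Bowtie2 2.1.0, Picard 1.92, HOMER 4.8 and mm10 were used. What settings, control and threshold the caller had is not given in the sources used here, nor are read totals, so depth is unknown. The authors deposited a score with each region, whose definition is also not given, and scores were compared within 1 list only. An input library was not used here.

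With Python 3.11.15, numpy 2.4.6, scipy 1.17.1 and pandas 2.3.3, regions were called shared at 1 bp of overlap, on assembled chromosomes. Overlap shares per library were compared by exact permutation tests over libraries, with Benjamini-Hochberg adjustment over 4 tests and a threshold of 0.05. Intervals are 95% Wilson intervals. The overlap functions were tested on simulated data. Gene bounds, starts (none for chromosome 18) and promoter sequence came from RefSeq tables of GRCm38.p6, and CpG-rich windows have at least 55% GC and 0.6 observed over expected CpG. No sequence outside the promoter windows was read, and 1233 of the 3266 members on chromosomes with windows lay on one.

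The members, the gene lists and the tests were chosen with earlier results of these data known. Genes were named by rule: those nearest the 20 highest-scoring members, members in both replicates without IL3 and neither with IL3, the highest-scoring genes of each list, the 10 highest-scoring members with all or no partner lists, and genes with the most members within 10 kb. The text gives a part of these, and some items are not reported here. From the synthetase list, 3 symbols caught by the name pattern that are no synthetases were left out. Alternatives were other overlap rules, replicates left out in turn, equal numbers of top regions, the upper part of the list by score, other distances and, chosen after seeing the data, 1 window per gene and CpG-rich windows alone.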

Additional observations from a re-analysis of the deposited data

Results flagged for a closer look

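Off the assembled chromosomes, which the comparisons leave out, the pooled STAT5A library with IL3 had 3 regions and that without IL3 had 8. Of the 8, 7 overlapped none with IL3, by the same rule that leaves 66.5% of the list on assembled chromosomes without overlap. They are named because they lie in data that the comparisons do not use and exceed the 3 that a count of 0 allows, and nothing is read from the 7.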

How the results depend on the processing

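The numbers of the replicates do not by themselves pair libraries. With a replicate block, the LSD1 difference with minus without IL3 was 5.19 points (exact p = 1), the HDAC3 one -2.65 (exact p = 0.5), and members minus retained -20.9 for LSD1 and -7.53 for HDAC3 (exact p = 0.5 each), with no call changed. The LSD1 difference with minus without IL3 turned to -0.969 with equal numbers of top regions from each list (exact permutation p = 0.333), to -4.83 without replicate 2 with IL3 and to -13.1 without replicate 1 without IL3, within a range of -13.1 to 23.5 when 1 library was left out. HDAC3 with minus without IL3 stayed negative, at -0.373 with equal numbers and between -4.50 and -0.805 with a library left out. Members minus retained stayed negative in every setting run, between -25.2 and -18.4 (LSD1) and -9.71 and -4.97 (HDAC3) with a library left out, and -10.7 and -3.45 with equal numbers.

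The number of regions called without IL3 alone depended on replicate 2: counted in 1 replicate list without IL3 against both with IL3, it was 145 with replicate 2 left out and 2929 with replicate 1 left out, and was 1453 in the upper part of the list by score. The gene-end share was 48.3% within 500 bp, 69.5% within 5 kb, 60.9% for the upper part by score, and 30.1% to 64.9% with a replicate left out. Genes with a member were 3505 within 10 kb and 1160 for the upper part by score. The share of windows with TTCNNNGAA was 4.21% with 1 window per gene and 3.47% in CpG-rich windows, and that with 2 or more CCAAT 20.9% and 20.4%. Read depth is unknown, and 1 STAT5A replicate list holds as few as 352 regions.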
